A study of Mus musculus with 4 samples.

Results

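Among exonic bins of genes well expressed in mouse thigh skeletal muscle, 456 bins in 364 genes held reads in each of 3 libraries from 28-month-old mice and at most 1 read in the library from an 18-month-old mouse. An exonic bin is a stretch of exon between neighbouring annotated exon boundaries. The bins were selected on their own counts: at least 10 counts in each 28-month library, at most 1 count at 18 months, and a host gene whose bins summed to at least 500 counts in every library. They were drawn from 150107 bins of 7136 such genes, so that 0.304% of these bins qualified, out of 348179 bins that belong to a single gene. Of the 106777 bins in these genes that reached 10 counts in each 28-month library, 0.427% had at most 1 count at 18 months. Because the counts chose the bins, counts, shares and fold differences of the bins are given as a description, without a test.

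All mice were wild-type males of the inbred strain C57BL/6J and received no treatment. The older group, aged 28 months, has 3 libraries and the younger, aged 18 months, has 1. The libraries were made to test a splicing analysis from exon arrays of these muscles. The labels do not say whether the 28-month libraries came from separate animals, so that spread between them may be technical, and 1 library at 18 months gives no spread at that age. The extraction text describes epidermal keratinocytes while every label names muscle: 67 sarcomere and Z-disc genes summed to 134931 to 263962 CPM (counts scaled to library size by the trimmed mean of M values, TMM) over the 4 libraries, 10 keratinocyte markers summed to 12.9 to 18.3 CPM, and Krt5, Krt15 and Ivl were at 0 in all 4. The bins of a library summed to between 65780464 (18 months) and 76163175 counts.

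A gene's transcripts can begin at several promoters, each with its own first exon, and can include or skip internal cassette exons. A bin can therefore gain or lose reads because a different promoter or exon is used, or because reads reach one end of a transcript less often. Muscle is known for large numbers of alternative exons, many of them in sarcomere genes such as the troponin T genes and in genes for Z-disc proteins. First exons of vertebrate genes are often rich in G, C and the pair CG, since many promoters lie in CpG islands.

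The bases of some bins show the kinds of exon concerned. Of the 456 bins, 381 (83.6%) in 301 genes could be placed on the GRCm38 genome by rebuilding the bins from GENCODE M21, and only placed bins that are wholly coding are printed, with each CG pair in capitals. The following 6 lie in the first exons of Ptges2 (a prostaglandin E synthase), Klhdc10 (a kelch-repeat protein), Paip1 (a poly(A)-binding protein partner) and Rnf25 (a RING finger ubiquitin ligase). Those of Ptges2 and Klhdc10 were picked after their values were seen, as examples of high CG content.
Ptges2 bin 2, chr2:32396440-32396550, plus strand: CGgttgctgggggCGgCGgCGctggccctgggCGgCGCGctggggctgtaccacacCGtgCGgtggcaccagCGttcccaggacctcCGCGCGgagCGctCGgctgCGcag
Klhdc10 bin 3, chr6:30401998-30402150, plus strand: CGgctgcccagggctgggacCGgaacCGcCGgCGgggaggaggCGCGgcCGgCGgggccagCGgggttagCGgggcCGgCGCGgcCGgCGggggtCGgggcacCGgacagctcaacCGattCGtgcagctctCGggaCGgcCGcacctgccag
Paip1 bin 4, chr13:119429133-119429157, plus strand: atgtCGgacagtttCGatCGggctc
Paip1 bin 6, chr13:119429161-119429412, plus strand: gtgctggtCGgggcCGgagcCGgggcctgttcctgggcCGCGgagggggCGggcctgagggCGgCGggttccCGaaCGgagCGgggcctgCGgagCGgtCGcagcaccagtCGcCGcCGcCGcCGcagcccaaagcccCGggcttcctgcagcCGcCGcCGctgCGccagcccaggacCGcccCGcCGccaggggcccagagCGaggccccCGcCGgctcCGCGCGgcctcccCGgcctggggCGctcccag
Rnf25 bin 27, chr1:74601346-74601365, minus strand: atggCGgCGtctgCGtCGac
Rnf25 bin 26, chr1:74601325-74601345, minus strand: agctgctggggaagaggactg
Paip1 bin 4 and Rnf25 bin 27 open with atg, and Paip1 bin 6 was 82.5% G and C with 35 CG pairs in 252 bases. The next 6 are cassette exons, spliced in by some annotated transcripts and skipped by others, of Arrb1 (a beta-arrestin), Clcn1 (the muscle chloride channel), Xpo6 (a nuclear exporter of actin), Strn4 (a striatin scaffold protein, picked after its values were seen) and Tnnt3 (fast skeletal troponin T).
Arrb1 bin 8, chr7:99587215-99587259, plus strand: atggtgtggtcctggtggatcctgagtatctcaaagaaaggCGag
Clcn1 bin 10, chr6:42293444-42293522, plus strand: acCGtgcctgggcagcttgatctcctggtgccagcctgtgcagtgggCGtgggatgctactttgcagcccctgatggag
Xpo6 bin 60, chr7:126174158-126174248, minus strand: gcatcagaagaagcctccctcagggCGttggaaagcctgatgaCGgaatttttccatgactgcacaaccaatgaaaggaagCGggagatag
Xpo6 bin 59, chr7:126171030-126171142, minus strand: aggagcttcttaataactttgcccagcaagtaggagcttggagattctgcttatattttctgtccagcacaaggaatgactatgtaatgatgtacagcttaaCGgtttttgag
Strn4 bin 11, chr7:16825790-16825850, plus strand: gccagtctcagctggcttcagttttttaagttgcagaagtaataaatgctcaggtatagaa
Tnnt3 bin 19, chr7:142507845-142507863, plus strand: aagaagaaccaacagtcca
The Ptges2 and Klhdc10 bins held 16 CG pairs in 111 bases and 23 in 153 bases, whereas Strn4 bin 11 held 0 in 61 bases and Xpo6 bin 59 held 1 in 113 bases. Across the 310 placed bins of at least 20 bases, median GC content was 64.1% and the median number of CG pairs per 100 bases was 7.77.

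Most of the 456 bins were small in count. The mean count over the 28-month libraries had a median of 20.7 and ran from 10.3 to 451, and 131 bins held at least 20 counts and 7 at least 100 in each 28-month library. The lowest 28-month count was exactly 10 in 70 bins. At 18 months 256 bins had 0 counts and 200 had 1. Just inside the threshold, Clu bin 2 held 10, 10 and 11 counts at 28 months and 0 at 18 months, Anapc15 bin 7 held 13, 10, 10 and 0, and Ilvbl bin 1 held 11, 11, 10 and 1. Just outside were 77 bins with a lowest 28-month count of 9, among them Kmt2b bin 44 with 9, 10, 11 and 0, Gcc2 bin 4 with 10, 9, 11 and 1, and Slc2a1 bin 4 with 9, 12, 9 and 1. A further 275 bins passed at 28 months and had 2 counts at 18 months, with Sdhc bin 10 (696, 786 and 553 counts against 2) and Ndufa3 bin 4 (502, 558 and 353 against 2) the most abundant of them.

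Each bin was a small part of its gene. The bin's share, its count over the sum of the gene's bins, averaged over the 28-month libraries, had a median of 1.11% (quartiles 0.610% and 1.8%). The mean share was under 1% in 206 bins, 1% to 5% in 244 and over 5% in 6. The share varied between the 28-month libraries by a median ratio of 1.46 from highest to lowest, at most 4.88, and by under 2 in 393 bins. Replicate 2, with the largest scaling factor (1.28, against 0.877, 0.897 and 0.990 in replicate 1, replicate 3 and the 18-month library), held the highest count in 260 bins but the highest share in 122. The highest share was in replicate 1 in 143 bins and in replicate 3 in 191, so that no library held most of the highest shares.

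To set the 18-month count beside the depth of the gene, the mean 28-month share was multiplied by the gene's total at 18 months. This expected count had a median of 16.0 (3.73 to 463), was at least 10 in 388 bins and at least 20 in 150, and was under 10 in 68. A count of 0 allows up to 3 counts, so a ratio against 0 is a lower bound. For a bin with 1 count, the ratio of the expected to the observed count carries the exact 95% binomial interval of the bin's 18-month share. Both cover counting error only, and fragments that span several bins are counted in each. The expected count makes no allowance for the smaller part of counts that the 18-month library held at 5′ ends, described below.

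**Figure D1:**
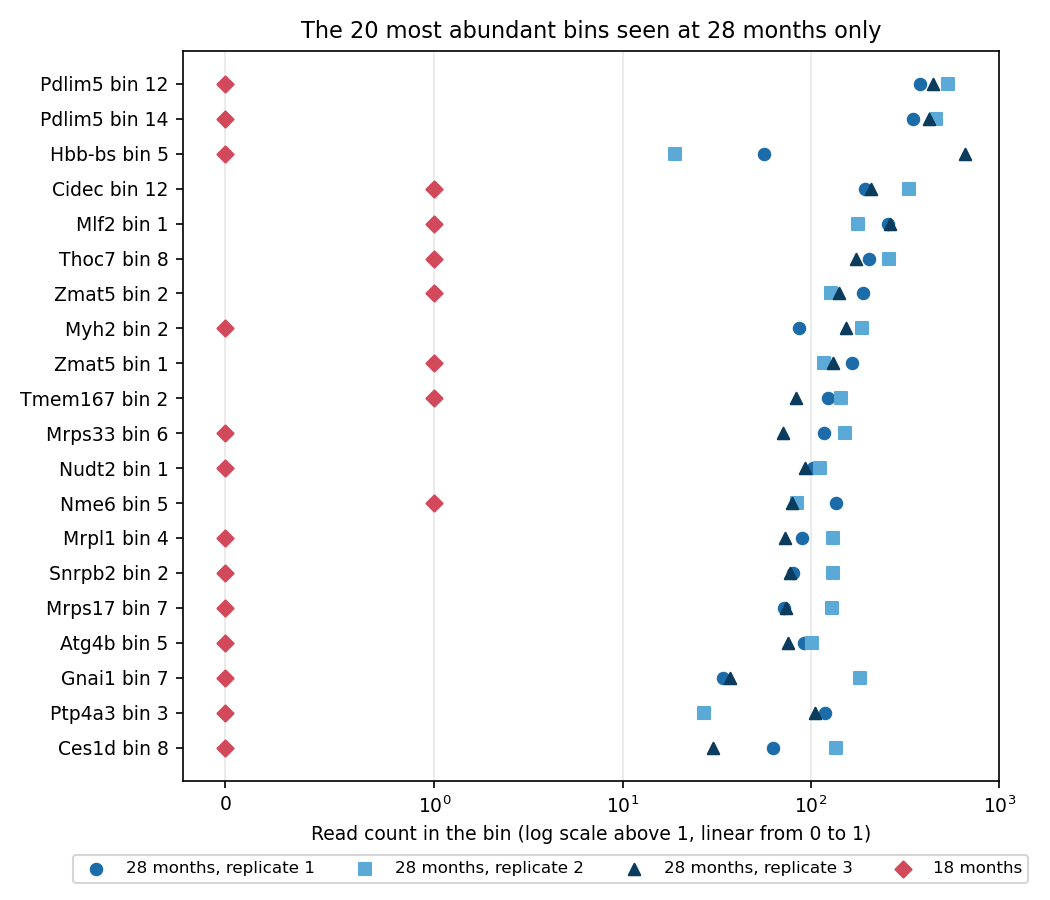
Read counts of the 20 bins with the largest mean count at 28 months, 1 row per bin; points are single libraries, and the axis is linear from 0 to 1 and logarithmic above. Counts at 18 months were 0 or 1 by selection, while the 28-month counts of Hbb-bs bin 5 ran from 19 to 659 and those of Pdlim5 bin 12 from 377 to 534.

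The most abundant bins belonged to Pdlim5, which encodes a PDZ and LIM domain protein of the Z-disc and is made in long forms and in short forms that lack the LIM domains. Pdlim5 bin 12 held 377, 534 and 442 counts at 28 months, against 0 at 18 months, and bin 14 held 348, 462 and 421 against 0. Their mean shares were 1.61% ± 0.17 and 1.47% ± 0.096 (SD, n = 3 libraries). At these shares 463 and 422 counts were expected at 18 months, at least 154-fold and 141-fold more than 0 counts allow. Neighbouring bins did not share the pattern: bin 11 was highest at 18 months, with 241 counts against 66, 67 and 116, and bin 13 held 7, 6 and 1 against 2. Bins that took over 1% of the gene at 18 months lay on both sides of the pair. Neither Pdlim5 bin could be placed on the genome, so no position, length or sequence is given, and the gene as a whole differed by a log2 of -0.20 (28 minus 18 months).

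**Figure D2:**
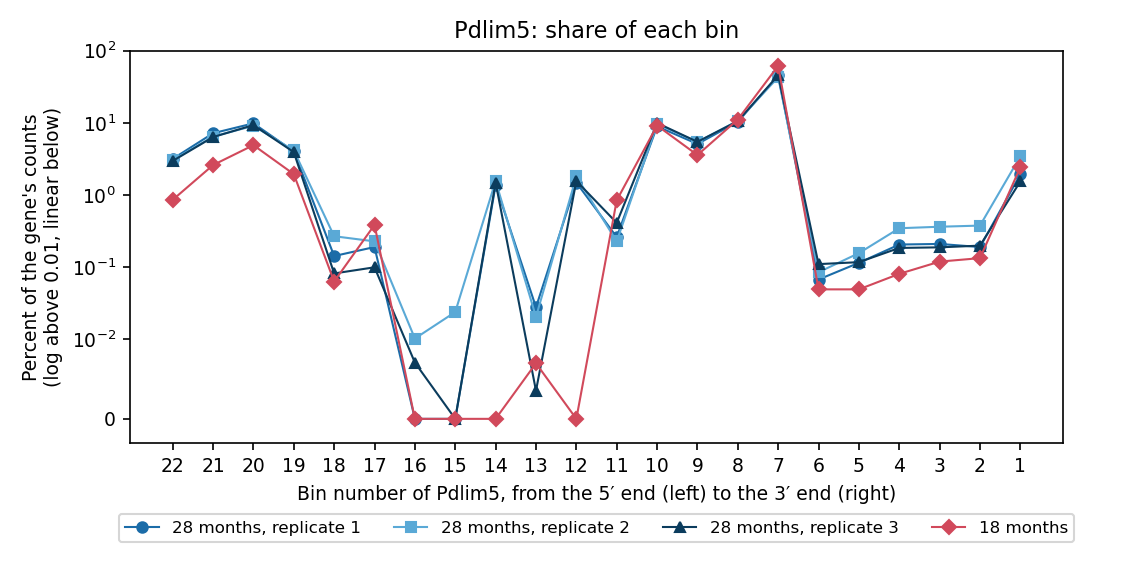
Share of the gene's counts in each of the 22 bins of Pdlim5, from the 5′ end at the left, with 1 line per library on an axis that is logarithmic above 0.01% and linear below. Bins 12 and 14 stand at 1.36 to 1.8% in the 28-month libraries and at 0 at 18 months, while bin 11, next to bin 12 on the 3′ side, was higher at 18 months.

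The bins with the largest shares lay in genes with few bins, 3 to 11 in each. Mrps33, a protein of the small mitochondrial ribosomal subunit, had the largest: bin 6, 22 bases of 5′ untranslated first exon at chr6:39810864-39810885, held 117, 152 and 71 counts at 28 months and 0 at 18 months, a share of 15.7% ± 2.14 (SD, n = 3), at least 28.9-fold above the limit at 18 months. The 2 bins upstream of it were also at 0 at 18 months, and the bin downstream held 27.8, 26.5 and 28.8% of the gene at 28 months and 25.05% at 18 months. Nudt2 bin 1, the 5′-most bin of a gene for a dinucleotide tetraphosphate hydrolase, held 103, 112, 93 and 0 counts and a share of 9.14% ± 1.43 (SD, n = 3). Zmat5, a zinc finger protein of the minor spliceosome, had both of its 5′-most bins on the list: bin 1 held 165, 117, 130 and 1 counts and bin 2 held 188, 127, 141 and 1. The shares of the Zmat5 bins were 7.15% ± 0.64 and 7.87% ± 0.53 (SD, n = 3), but the bins lie side by side at chr11:4704678-4704721, with 30 and 14 bases, and read many of the same fragments. Bri3 bin 3 (59, 55, 57 and 0 counts, 7.33% of the gene) and Pus3 bin 4 (37, 52, 27 and 0, 5.13%), the latter in a gene for a tRNA pseudouridine synthase, completed the 6 bins over 5%.

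Other bins high by count or share included several at the 5′ side of their genes, while Hbb-bs bin 5 and Cmip bin 14 lay between bins with reads at 18 months. Mlf2 bin 1 held 257, 178 and 261 counts against 1, so that the expected count was 147 times the observed one (26.4 to 5.81e+03), and Thoc7 bin 8, the 5′-most bin of a subunit of the THO mRNA export complex, held 202, 260 and 174 against 1. Tmem167 bin 2 held 123, 145, 83 and 1 counts, 4.75% of the gene. Snrpb2, a protein of the U2 small nuclear ribonucleoprotein, had 2 adjoining bins: bin 2 with 80, 131, 77 and 0 counts and bin 1 with 16, 30, 28 and 0. Pigc bin 3 (25, 74, 30 and 0), Fkbp2 bin 7 (55, 43, 46 and 0) and Lyrm7 bin 16 (35, 34, 21 and 1) held 4.44, 4.37 and 4.03% of their genes.

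Position in the gene was not part of the selection, and the bins lay near the 5′ end. The 5′-most bin of the gene made up 90 of the 456 bins (19.7%), against 2.23% of all bins with at least 10 counts in each 28-month library and 4.56% of all bins of these genes. The 3′-most bin was on the list once, in Surf6 (bin 1, 19, 12, 17 and 1 counts, named after its values were seen), against 4.59% of expressed bins. The first quintile of the gene's bin order held 66.4% of the bins against 13.9% of expressed bins, and the latter part of the order, past its midpoint, held 8.33% against 55.0%. These shares are set side by side without an enrichment test.

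**Figure D3:**
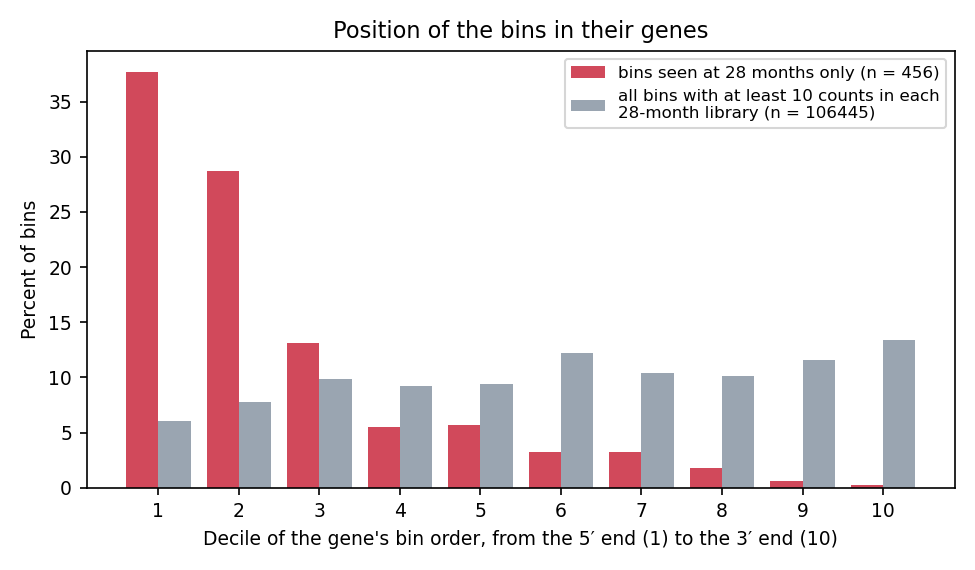
Percent of bins in each decile of their gene's bin order, from the 5′ end, for the bins seen at 28 months only and for all bins of the same genes with at least 10 counts in each 28-month library, in genes with several bins. The first decile holds 37.7% of the listed bins and 6.08% of expressed bins, and the last decile 0.219% and 13.4%.

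Annotation of the placed bins gave the same picture by exon type. Parts of first exons made up 255 of 381 placed bins (66.9%), against 7.63% of expressed placed bins and 19.1% of all placed bins of these genes. Internal exons that no annotated transcript skips made up 90 (23.6% against 69.7%), cassette exons 16 (4.20% against 2.98%), alternative exon ends 12 (3.15% against 3.88%), retained introns or exon interiors 5 and last exons 3 (0.787% against 13.2%). A bin was classed as first or last exon only if it was so in every transcript that holds it. Some bins classed as internal may therefore start or end a transcript. Put the other way, 3.79% of expressed first-exon bins were on the list, 0.146% of always-included internal bins and 0.0258% of last-exon bins. By coding state 185 bins (48.6%) were 5′ untranslated, 122 (32.0%) wholly coding, 62 partly coding, 11 in noncoding transcripts alone and 1 3′ untranslated, whereas 4.57% of expressed placed bins were 5′ untranslated and 76.6% coding. The 75 bins that could not be placed had a median relative position of 0.143 from the 5′ end, beside 0.122 for the placed ones.

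The bins were also short and rich in G and C. Length had a median of 61 bases and quartiles of 25 and 129, against quartiles of 71 and 173 for expressed placed bins, and 29.7% were shorter than 30 bases against 8.58%. In this kind of counting a read is counted in a bin that it overlaps by any length, so bins of 1 to 3 bases, such as Hp1bp3 bin 11 and Paip1 bin 5, carry the reads of their neighbours: Hp1bp3 bins 10 and 11 each held 28, 37, 18 and 0 counts and Paip1 bins 4 and 5 each held 13, 26, 15 and 0. GC content of at least 70% was seen in 117 of 310 bins (37.7%), against 2.01% of expressed bins. First-exon bins on the list had a median GC content of 71.5%, and all expressed first-exon bins 63.6%.

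**Figure D4:**
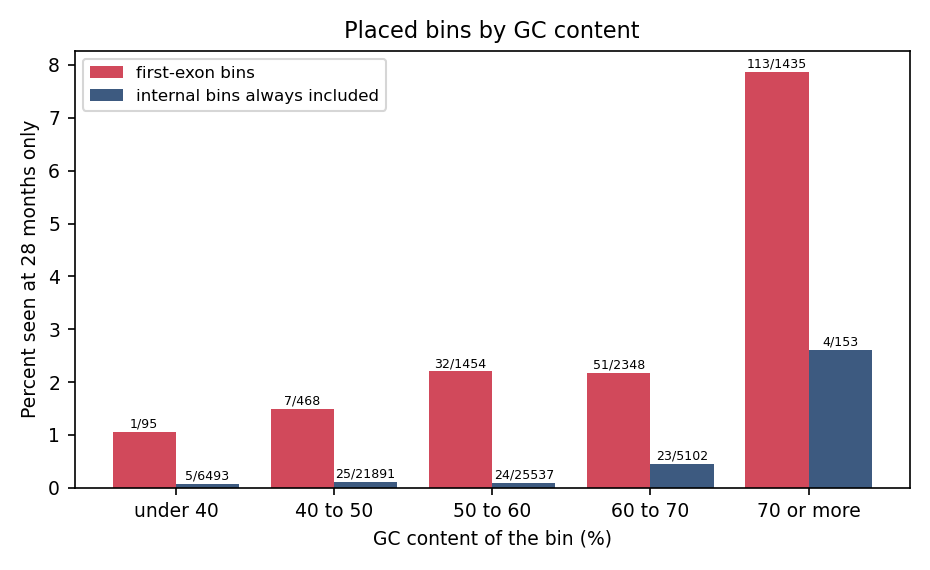
Percent of expressed placed bins of at least 20 bases that were seen at 28 months only, by GC content, for first-exon bins and for internal bins that no transcript skips; labels give listed over expressed bins. The share of first-exon bins rises to 7.87% (113 of 1435) at a GC content of 70% or more, and lies between 1.05% and 2.20% below it.

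Bins that were not on the list leaned the same way. In 6439 genes with at least 5 bins, with the listed bins left out, the first quintile of the bin order held a median of 4.97, 5.08 and 5.11% of the gene's counts at 28 months and 3.29% at 18 months, and the last quintile held 39.98, 37.6 and 39.5% against 50.6%. The 5′-most bin alone held a median of 0.0530, 0.0542 and 0.0559% at 28 months and 0.00874% at 18 months. With counts pooled over the genes, it held 1.77, 1.54 and 1.74% against 1.04%. The median log2 ratio of bin share, 28 over 18 months, was 0.52 in unlisted first-exon bins, 1.05 in those with at least 70% GC, 0.31 in always-included internal bins and -0.41 in last-exon bins. Over these genes the 18-month library held fewer of its counts at 5′ ends than each 28-month library, and the part of this lean in the list was not tested. With a single 18-month library, age and that library cannot be told apart.

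**Figure D5:**
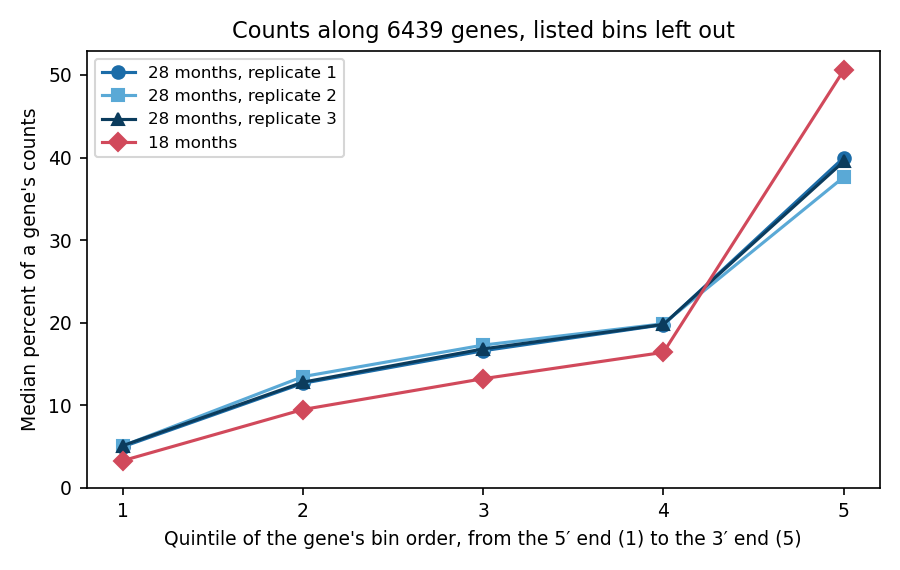
Median percent of a gene's counts in each quintile of its bin order over 6439 genes with at least 5 bins, with the listed bins left out; each line is 1 library. The 28-month lines lie close to one another, and the 18-month line is below them in the first 4 quintiles and above them in the last.

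The bins can be divided by the stretch of the gene covered at 18 months, from the first to the last bin with at least 10 counts at that age. In 354 bins (77.6%) of 295 genes no bin nearer the 5′ end reached 10 counts at 18 months, though lower counts can lie there, so the listed bin lay outside the covered stretch. Of these 354, 241 were first-exon bins, and their median GC content was 69.3%. Another 101 bins (22.1%), in 73 genes, lay within the covered stretch and are called flanked. The bins with at least 10 counts on each side need not be neighbours: for Map4k2 bin 57 the nearest were bins 44 and 73. Surf6 bin 1 lay beyond the covered stretch at the 3′ end. Of the 82 placed bins of this flanked kind 48 were internal exons that no transcript skips, 14 first-exon bins of transcripts that start inside the gene, 9 cassette exons, 5 alternative exon ends, 4 retained introns or exon interiors and 2 last exons, with a median GC content of 54.2%. The expected count at 18 months was at least 20 in 130 of the 354 bins and in 20 of the 101.

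Flanked bins with high expected counts included, after the Pdlim5 pair, Ptp4a3 bin 3 (119, 27, 105 and 0 counts, at least 16.0-fold), Dbp bin 4 (59, 18, 37 and 0, at least 14.6-fold) and Ces1d bin 8 (63, 136, 30 and 0, at least 12.3-fold), which were named after their values were seen. Ptp4a3 is a protein tyrosine phosphatase, Dbp a transcription factor of the circadian output and Ces1d a carboxylesterase. The Ces1d bin is 111 bases at chr8:93175179-93175289 that start 1 noncoding transcript, and the other two could not be placed. Cmip bins 13 and 14, neighbouring internal coding exons, held 15, 36, 18 and 0 counts and 22, 42, 22 and 1, or 2.93% and 3.77% of their gene.

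Among cassette exons, 12 of the 16 were coding, in 10 genes, and 4 of the 12 had a length that is a multiple of 3. These counts have no share over all cassette exons beside them, so nothing is read from them. Arrb1 bin 8, at chr7:99587215-99587259, held 19, 45, 12 and 1 counts, a mean share of 1.37% ± 0.21 (SD, n = 3), and its neighbour bin 7, an exon that no annotated transcript skips, held 18, 41, 10 and 1. Xpo6 bins 59 and 60 held 19, 75, 14 and 1 counts and 15, 46, 13 and 0, so that neighbouring cassette exons of this gene were listed together. Clcn1 bin 10, at chr6:42293444-42293522, held 12, 23, 12 and 1 counts, only 0.115% of the gene, with an expected count 12.0 times the observed one (2.15 to 474). Tnnt3 bin 19, at chr7:142507845-142507863, held 13, 74, 16 and 1 counts, 0.00136% of the gene, and 2 of 26 annotated transcripts contain it. The Arrb1 and Xpo6 cassettes lay on the 5′ side of the covered stretch, whereas those of Clcn1 and Tnnt3 were flanked.

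Several genes had more than 1 listed bin. Of the 364 genes 302 had 1 bin, 40 had 2, 16 had 3, 5 had 4 and Map4k2 had 6. Map4k2, a kinase of the JNK pathway, had bins 25, 26, 52, 57, 59 and 61 of its 84 bins on the list, with 28-month counts of 10 to 29. Paip1 (bins 3 to 6) and Znhit1 (bins 12, 13, 15 and 16) had their 4 bins in first exons, whereas those of Hip1r (bins 12, 34, 36 and 37), an actin-binding endocytic protein, and of Lrsam1 (bins 13 to 16), a ubiquitin ligase mutated in a peripheral neuropathy, were internal coding exons flanked by covered bins. Of the 456 bins 125 adjoined another listed bin, which left 387 separate runs, and adjoining bins share fragments and are not independent.

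All 364 host genes were protein coding, as were 6845 of the 7136 genes, and 5.10% of the 7136 were hosts. In the list of sarcomere and Z-disc genes 4 of 64 were hosts (Myh2, Neb, Pdlim5 and Tnnt3), in that of the membrane and dystrophin complex 2 of 28 (Pxn and Sgcb), and in that of oxidative phosphorylation 2 of 72 (Cox4i1 and Sdhc). Single hosts were Clcn1 among 36 genes of calcium handling and excitation, Acsl1 among 49 of glycolysis, glycogen and fatty acid oxidation, Hnrnpl among 55 splicing factors, Ube2d3 among 51 of the proteasome, ubiquitin and autophagy, Eif4g3 among 30 of translation, and Idh2 among 37 of mitochondrial carriers and import. Host shares were 6.25% in the sarcomere and Z-disc list and 7.14% in the membrane and dystrophin list, beside 5.10% of the 7136 genes. In all the other lists named here they were lower than 5.10%, from 1.82% (splicing factors) to 3.33% (translation). No list was tested.

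These lists held 18 of the 456 bins, of which 6 lay on the 5′ side of the stretch covered at 18 months and 12 were flanked by covered bins. Myh2, the myosin heavy chain of fast oxidative fibres, had bin 2, 23 bases of untranslated first exon at chr11:67171066-67171088, with 86, 187, 154 and 0 counts, or 0.409% ± 0.19 (SD, n = 3), at least 33.6-fold above the limit at 18 months. The next Myh2 bin, 3, held 239, 398 and 371 counts at 28 months and 24 at 18 months. Sgcb bin 6, the start of the beta-sarcoglycan gene, held 40, 45, 40 and 0 counts, and Sdhc bin 11, the 5′-most 12 bases of a succinate dehydrogenase subunit gene, held 53, 27, 32 and 0. Ube2d3 bin 2, 219 bases of 5′ untranslated exon, held 70, 44, 55 and 1 counts, and Cox4i1 bin 6, in a first exon flanked by covered bins, held 40, 54, 33 and 0. Neb bin 94, in the first exon of 1 of 11 transcripts of the giant thin-filament protein nebulin, held 15, 11, 14 and 1 counts, 0.00278% of the gene. Pxn bin 29 held 20, 21, 22 and 1, Acsl1 bin 6 held 32, 74, 33 and 0, Hnrnpl bin 3 held 20, 39, 38 and 1, Eif4g3 bin 6 held 13, 16, 13 and 0, and Idh2 bins 11 and 18 held 16, 16, 16 and 1 and 16, 29, 11 and 0.

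Some bins lay in genes of other cell types, whose levels differed between libraries. Hbb-bs, an adult beta-globin, had bin 5, with 56, 19 and 659 counts at 28 months against 0 at 18 months. Alas2, the erythroid enzyme of heme synthesis, named after its values were seen, had bin 2, with 28, 26 and 133 against 0. The Alas2 bin held 1.67, 2.42 and 1.32% of the gene at 28 months, above the 0.490% that 0 counts allow at 18 months. Summed CPM of 8 red blood cell markers was 499, 221.2 and 3957 at 28 months and 326 at 18 months, so that replicate 3 stood apart, and 2 of their 5 eligible genes were hosts. The share of Hbb-bs bin 5 was 0.342, 0.203 and 0.394% in replicates 1 to 3, above the 0.0381% that 0 counts allow at 18 months in each, and reads of Hbb-bs may be split with its near-identical copy Hbb-bt. Cidec, a lipid droplet protein of adipocytes, had bin 12, in an untranslated first exon, with 193, 332, 207 and 1 counts, or 1.17, 1.33, 1.43 and 0.0103% of the gene. Cidec bin 2, next to the 3′-most bin, held 28.1, 27.9 and 28.1% of the gene at 28 months and 57.6% at 18 months. Summed CPM of 9 adipocyte markers was 5225, 5628 and 4489 at 28 months and 3721 at 18 months. In whole muscle, fewer cells of a type and less RNA per cell cannot be told apart. None of the 8 eligible macrophage, 3 Schwann cell, 8 endothelial, 8 connective tissue and 5 smooth muscle markers was a host. Beside the 5.10% of the 7136 genes that were hosts, these lists are too short for anything to be read from that. All 14 tested macrophage markers were higher and all 12 Schwann cell markers lower at 28 months by log2 ratio. The part of cell makeup in the list was not tested.

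Host genes stood slightly higher at 28 months as whole genes. The median log2 ratio, 28 over 18 months, was 0.22 over the 364 host genes and 0.06 over the 7136 genes, 71.2% of hosts and 55.6% of all these genes were above 0, and 16 hosts (4.40%) were above 1, against 2.10%. The same counts entered the selection, so nothing is read from this difference. The edgeR quasi-likelihood test over 15376 genes called 0% of genes at an adjusted p under 0.05 (753 genes had an unadjusted p under 0.05, and DESeq2 called 31).

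In a test of bin use across the whole table (edgeR diffSpliceDGE, Benjamini-Hochberg adjusted p under 0.05), 299 of 143485 bins, or 0.208%, were called higher at 28 months relative to their gene. Of the 456 bins 428 had the mean count of at least 10 that the test required, and 110 of these were called higher and 0 lower. Since the selection used the same contrast, the count describes the bins and supports nothing. The count moved with single libraries, as did the share over all tested bins. Leaving out 28-month replicate 1 gave 54 calls among 380 listed bins tested, with 0.104% of all bins called higher. Leaving out replicate 2 gave 290 of 322, with 5.08% of all bins called higher, and leaving out replicate 3 gave 37 of 390, with 0.0668%. The DESeq2 Wald test called 58 of 428 listed bins, with 5.76% of all bins called higher.

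A mirror search, for bins with at least 10 counts at 18 months and at most 1 in every 28-month library, found 261 bins in 239 of the same genes. These bins had a median relative position of 0.528, beside 0.130 for the bins seen at 28 months only, and a median GC content of 44.8%. Of them 184, or 84.4% of those placed, belonged to noncoding transcripts alone, against 11.1% of all placed bins of these genes. Of the placed ones 91 (41.7%) were first-exon bins and 94 (43.1%) last-exon bins. Over all placed bins of these genes the percents were 19.1 and 16.3, so a raised share of first-exon bins was seen in both lists. Of the 239 genes, 14 hosted bins of both kinds. Among all 7136 genes 5.10% hosted bins of the 28-month list, so nothing is read from this overlap. Whether reads were counted by strand is not given in the sources used here, and 20 placed bins of the 28-month list (5.25%, against 2.96% of expressed bins) overlapped an exon of a gene on the other strand, among them Ube2d3 bin 2 and Cox4i1 bin 6.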

How the data were processed

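RNA from mouse thigh muscle was sequenced in 4 libraries. The submitters' processing notes name bcl2fastq 1.8.3, TopHat2 2.0.4 and the genome build GRCm38. The deposited tables held raw counts per exonic bin, not normalized by the authors; the counter, annotation release and strand setting are not given in the sources used here. Left out were the 5 entries per library that name no gene (3.36 to 5.20% of all counts). Bins joining several genes were left out of the selection, the shares and the test of bin use. They stayed in the library totals and, as joined units, in the gene test.

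Shares were bin counts over the sum of the gene's bins. Gene and bin use were fitted over the whole tables (edgeR 4.0.16, mean count of at least 10, adjusted p threshold 0.05; DESeq2 1.42.0 as an alternative; R 4.3.3), with all residual spread from the 28-month libraries; the code was tested on simulated data. Bins were rebuilt from GENCODE M21 transcripts numbered up to the limit at which most genes matched the deposited number of bins (22344 of 25309 multi-bin genes, 88.3%). A matching number does not prove the placement. Sequences are from GENCODE M21 transcripts. In 4495 placed genes with at least 10 bins, bin length and mean count had a median Spearman correlation of 0.34 across bins as placed and -0.13 in reversed order, which are not independent points.

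Named were the 12 bins with the largest mean count, the 12 with the largest mean share, bins in the muscle gene lists, genes with more than 1 bin and the bins nearest the thresholds; not every one is given. The bins and lists were chosen with earlier results of these data known.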

Additional observations from a re-analysis of the deposited data

How the results depend on the processing

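The 456 bins became 256 when 0 counts were required at 18 months, 1071 when up to 3 were allowed, 1112 and 131 with at least 5 and at least 20 counts in each 28-month library, 146 with a gene minimum of 2000 counts and 242 with TMM-scaled counts, of which 219 were among the 456. Thinning to the smallest library left 375 and a gene minimum of 200 gave 624. Without 1 of the 28-month libraries, 528 to 665 bins passed. All 456 were among them in each case, as they had to be, since leaving out a library only removes a condition. The median share (1.11%) and the percent of 5′-most bins (19.7%) moved little under the settings run, to between 1.09 and 1.12% and between 17.9 and 19.5%. Chosen after seeing the data, the rebuilding of bins from all M21 transcripts placed 239 bins, 73.6% of them in first exons. Bin use called 525 bins in both directions with edgeR, 12962 with the DESeq2 Wald test, and 245 to 9765 without 1 of the 28-month libraries. Gene expression called 0 genes with edgeR, 31 with DESeq2, and 0 to 1799 without 1 of those libraries. The 1799 genes and 9765 bins came without replicate 2. The causes were not tested. No paired analysis was possible because the 18-month group has a single library whose label carries no replicate number shared with the 28-month libraries. At this depth an expected count under 10, as in 68 bins, leaves little room to show an absence. Larger expected counts do not show one either, since they make no allowance for the smaller part of counts at 5′ ends in the 18-month library.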
